A study of Mus musculus with 16 samples.

Results

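The comparison described here set splenic B cells that lacked both TLR7 and TLR9 against B cells that lacked TLR7 alone, after 6, 24 and 42 h of culture with PL2-3. Its members were 6 of the 16 arrays of the study, chosen by their labels and matched by time: 3 of the TLR7 TLR9 KO genotype and 3 of the TLR7 KO genotype. The 0 h arrays of the same genotypes, 1 each, were set beside them. The remaining 8 arrays came from TLR9 KO and WT cells at the same 4 times, 1 array per genotype and time.

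The TLR7 TLR9 KO cells carried knockouts of Tlr7 and Tlr9, and the TLR7 KO cells carried the Tlr7 knockout with Tlr9 intact, so absence of TLR7 was shared by both groups. The mice were of the AM14 strain, in which a transgenic B cell receptor has rheumatoid factor activity directed to IgG2a. PL2-3 is a monoclonal IgG2a antibody to chromatin, and the stimulated cells of every genotype received it. The sources used here give no antibody dose, no method of B cell purification, no age or sex of the mice and no word on pooling of animals. No array of cells cultured for the same times without PL2-3 was used here.

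TLR7 and TLR9 are endosomal receptors of the innate immune system that recognise RNA and DNA. Both signal through the adaptor MyD88, which leads to activation of NF-kB and interferon regulatory factors. In AM14 B cells, a receptor that binds IgG2a brings complexes of antibody and chromatin into endosomes where these receptors lie. Cells that lack TLR7 can still use TLR9 on the DNA of such complexes, and cells that lack both must respond without either receptor. The comparison asks what TLR9 contributes in cells where TLR7 cannot take part.

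Each array measured the cells' RNA in Cy5 against a common pool in Cy3, made of RNA from unstimulated B cells of all 4 genotypes. A level below is log2 of sample over pool, so 0 is the level of unstimulated B cells, and a difference is the TLR7 TLR9 KO level minus the TLR7 KO level. Between 47.2% and 62.7% of spots were well above background in Cy5 on the 8 arrays of both genotypes. Levels of different genes are not comparable, because each probe has its own brightness. There was 1 array per genotype and time, so the 3 arrays of a genotype are different times and not replicate cultures. A p-value here sets the difference over the 3 times against how far the genotypes disagreed from time to time. The TLR7 TLR9 KO arrays lay on a different slide from the TLR7 KO arrays, as did TLR9 KO from WT, so slide and TLR9 status cannot be told apart in any direct comparison. In whole-culture RNA, fewer cells of a type and less RNA per cell cannot be told apart either.

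The labels were checked against probes for the deleted genes and against cell markers. The Tlr9 probe, on chromosome 9 at chr9:106128979-106129038 of build mm9, read -0.35 ± 0.22 in TLR7 TLR9 KO cells and -0.41 ± 0.31 in TLR7 KO cells (SD over 4 times each). The difference of 0.06 had an exact permutation p of 0.8, 2-sided, where 0.0286 was the smallest p possible. This probe therefore did not separate the genotypes, and whether it lies in the part deleted in the knockout is not given. Of 3 Tlr7 probes, 2 read lower in both genotypes than in TLR9 KO and in WT cells at each of the 4 times, the first at -0.58 to 0.41 in TLR7 TLR9 KO cells and -0.73 to -0.02 in TLR7 KO cells. Between TLR7 TLR9 KO and TLR7 KO cells the 3 probes differed by 0.42, 0.13 and 0.48, with exact permutation p of 0.2, 0.257 and 0.343. The permutation tests of the Tlr9 and Tlr7 probes exchange arrays of different times and ignore the matching by time. The B cell genes matched on the array, 6 in all and among them Cd79a, Cd79b and Ms4a1, were well above background on all 8 arrays. T cell, myeloid, NK and plasmacytoid dendritic cell, and erythroid markers were also present: 12 of 16, 17 of 21, 7 of 17 and 10 of 15 were above background on all 8. Among them Bcl11b, Xcr1 and Ppbp were above background on none. The summed erythroid signal, as log2 of Cy5 brightness, was 17.69 in TLR7 TLR9 KO cells at 0 h, against 18.9 in TLR7 KO cells. The summed myeloid signal was 13.78, 14.13 and 14.48 in TLR7 TLR9 KO cells at 6, 24 and 42 h, against 13.36, 13.2 and 13.93 in TLR7 KO cells. The T cell sums were 13.88, 15.21 and 14.75 in TLR7 TLR9 KO cells, against 14.11, 14.42 and 14.24 in TLR7 KO cells. For NK and plasmacytoid dendritic cell markers they were 15.44, 15.42 and 15.43 in TLR7 TLR9 KO cells, against 15.04, 14.63 and 14.84 in TLR7 KO cells. The part of other cells in the differences below was not tested.

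A further feature of the arrays bears on the fit. The median level of the mitosis genes listed below was -0.19, 0.57 and 2.68 at 6, 24 and 42 h in TLR7 TLR9 KO cells. It was -0.13, 1.82 and 3.58 in TLR7 KO cells. In TLR9 KO cells it was -0.14, 3.52 and 0.88, against -0.13, 1.94 and 3.34 in WT cells, so the TLR9 KO array labelled 24 h stood high and the one labelled 42 h stood low. The labels were kept. Calls of the stimulated comparison, over all genes and in the lists, are also given without the TLR9 KO arrays. The other results were not computed without them.

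Of 14344 genes tested, 281 passed limma's moderated test at an adjusted p below 0.05 (1.96%), with 201 higher (1.4%) and 80 lower (0.558%) in TLR7 TLR9 KO cells. All 281 differed in the same direction at the 3 times, which passing the test itself favours and which is no separate support. For 222 of them the 3 TLR7 TLR9 KO arrays did not overlap the 3 TLR7 KO arrays, against 2000 of 14336 genes (14%) over the whole test. Passing the test on these same arrays favours that as well, so this count is no separate support either. An unadjusted p below 0.05 was reached by 3169 genes. The number of calls moved with the arrays in the fit. It was 4 or 5 when the arrays of any 1 time were left out, and 11 on the 6 arrays alone. Without the TLR9 KO arrays it was 543, which included 270 of the 281. List members that passed in that setting are to be read against those 543 among all tested genes. With the scanner's own processed signals 6 genes passed, Arl2bp, Wfdc21, Marchf3, Tmcc3, Itln1 and Rnd3, while none of the 33 genes that passed and were picked by the naming rule changed direction under any alternative in which it was tested.

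At single times there was 1 array against 1 and no test. At 0 h 15 of the tested genes were at least 2-fold higher (0.105%) and 47 at least 2-fold lower (0.328%) in TLR7 TLR9 KO cells. At 6 h the counts were 205 (1.43%) and 129 (0.9%), at 24 h 454 (3.17%) and 486 (3.39%), and at 42 h 453 (3.16%) and 363 (2.53%). The split at 24 h depended on the scaling: with arrays centred on their median in place of the brightness-dependent correction, 79 genes were at least 2-fold higher and 3921 lower. That centring put the median of all tested genes at -0.14, -0.31, -0.55 and -0.15 at 0, 6, 24 and 42 h. The order of the times depended on the scaling too. With quantile scaling between arrays 806 genes were at least 2-fold higher and 1058 lower at 0 h, against 78 and 70 at 6 h, 294 and 174 at 24 h, and 353 and 225 at 42 h. Quantile scaling gives every array the same spread of log ratios. Before it, the SD over spots was 0.166 in TLR7 TLR9 KO cells and 0.153 in TLR7 KO cells at 0 h, and between 0.447 and 0.704 on the stimulated arrays of both genotypes.

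**Figure D1:**
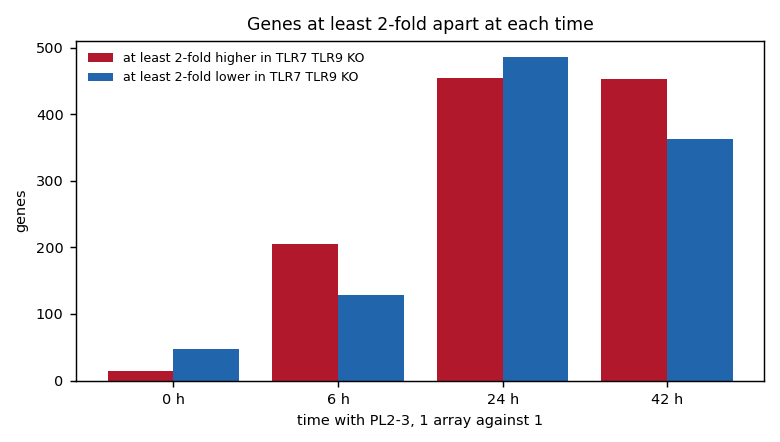
Number of tested genes (y axis) at least 2-fold higher or lower in TLR7 TLR9 KO than in TLR7 KO cells at each time with PL2-3 (x axis), 1 array against 1. The bars stand at 15 and 47 genes at 0 h and at 454 and 486 genes at 24 h.

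The genes that passed had medians near 0 at 0 h in the main scaling. The 200 higher genes with a 0 h value had a median difference of -0.02 at 0 h, against 0.88 after stimulation, and 95 of them (47.5%) had the stimulated direction already at 0 h. The 80 lower genes had a median of -0.04 at 0 h, against -0.83 after stimulation, and 47 (58.8%) had the same direction. Over all tested genes 50.9% had the same direction. The 0 h arrays lie on the same slides as the later ones, 1 array a genotype, and so share any constant slide difference. Sample and pool are both unstimulated cells at 0 h, so a slide effect that grows with the log ratio would not show there. The 0 h values therefore cannot tell slide from TLR9 status.

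The largest fall was that of Wfdc21, which encodes a small secreted protein of the whey acidic protein family. It read -4.57, -4.71 and -5.02 in TLR7 TLR9 KO cells at 6, 24 and 42 h, against 0.27, 0.72 and 1.90 in TLR7 KO cells. The genotypes did not overlap, and the difference of -5.73 ± 0.59 (SE, limma adjusted p = 0.0094) is 53.1-fold lower. At 0 h the levels were -0.72 in TLR7 TLR9 KO cells and 0.72 in TLR7 KO cells, so a smaller difference in the same direction came before stimulation. Its family member Wfdc17 fell less, by 0.97 (limma adjusted p = 0.039). Wfdc17 read -0.95, -1.51 and -1.34 in TLR7 TLR9 KO cells, against 0.14, -0.12 and -0.90 in TLR7 KO cells.

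Ifnlr1, the specific chain of the receptor for type III interferons, read 0.73, 0.86 and 0.35 in TLR7 TLR9 KO cells, against 3.88, 3.80 and 4.12 in TLR7 KO cells. It was 9.75-fold lower (log2 difference -3.28 ± 0.35, limma adjusted p = 0.011). It thus stood far above unstimulated cells in TLR7 KO cells and close to them without TLR9.

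Batf, an AP-1 family factor that B cells need for class switching, read 1.77, 0.47 and 1.34 in TLR7 TLR9 KO cells, against 4.09, 3.20 and 2.21 in TLR7 KO cells. It was 3.93-fold lower (limma adjusted p = 0.043), and its levels did not overlap. Gadd45b, a stress-induced gene and NF-kB target, read 1.70, -2.02 and -1.22 in TLR7 TLR9 KO cells, against 3.23, 1.14 and 0.37 in TLR7 KO cells. It was 4.27-fold lower (limma adjusted p = 0.043), although the 6 h level without TLR9 lay above the later levels of TLR7 KO cells. Ell3, a transcription elongation factor expressed in B cells, read -3.56, -2.96 and -3.18 in TLR7 TLR9 KO cells, against -1.64, -0.38 and -0.89 in TLR7 KO cells. Ell3 was 4.8-fold lower (limma adjusted p = 0.039).

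Hsd11b1, the enzyme that regenerates active glucocorticoid, read -3.44, -1.31 and -0.99 in TLR7 TLR9 KO cells, against 0.05, 1.79 and 1.61 in TLR7 KO cells, and was 8.37-fold lower (limma adjusted p = 0.039). Tmcc3, a membrane protein with coiled coils, read -1.25, -1.14 and -0.81 in TLR7 TLR9 KO cells, against 0.81, 0.96 and 1.1 in TLR7 KO cells. Its fall of 4.07-fold had one of the smallest spreads (log2 SE 0.18, limma adjusted p = 0.0044). Fam89a, Niban3, Cacna1s and Hap1 fell by 2.25, 2.21, 2.08 and 2.03 on the log2 scale, with limma adjusted p of 0.035, 0.033, 0.033 and 0.039. Second probes, well above background on all 6 arrays, gave smaller differences. These were -1.26 for Fam89a, -1.03 for Cacna1s, -0.33 for Hap1 and -0.89 for Tmcc3. Niban3 is a B cell gene, Cacna1s encodes the pore of a muscle calcium channel, and Hap1 a huntingtin-associated protein.

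**Figure D2:**
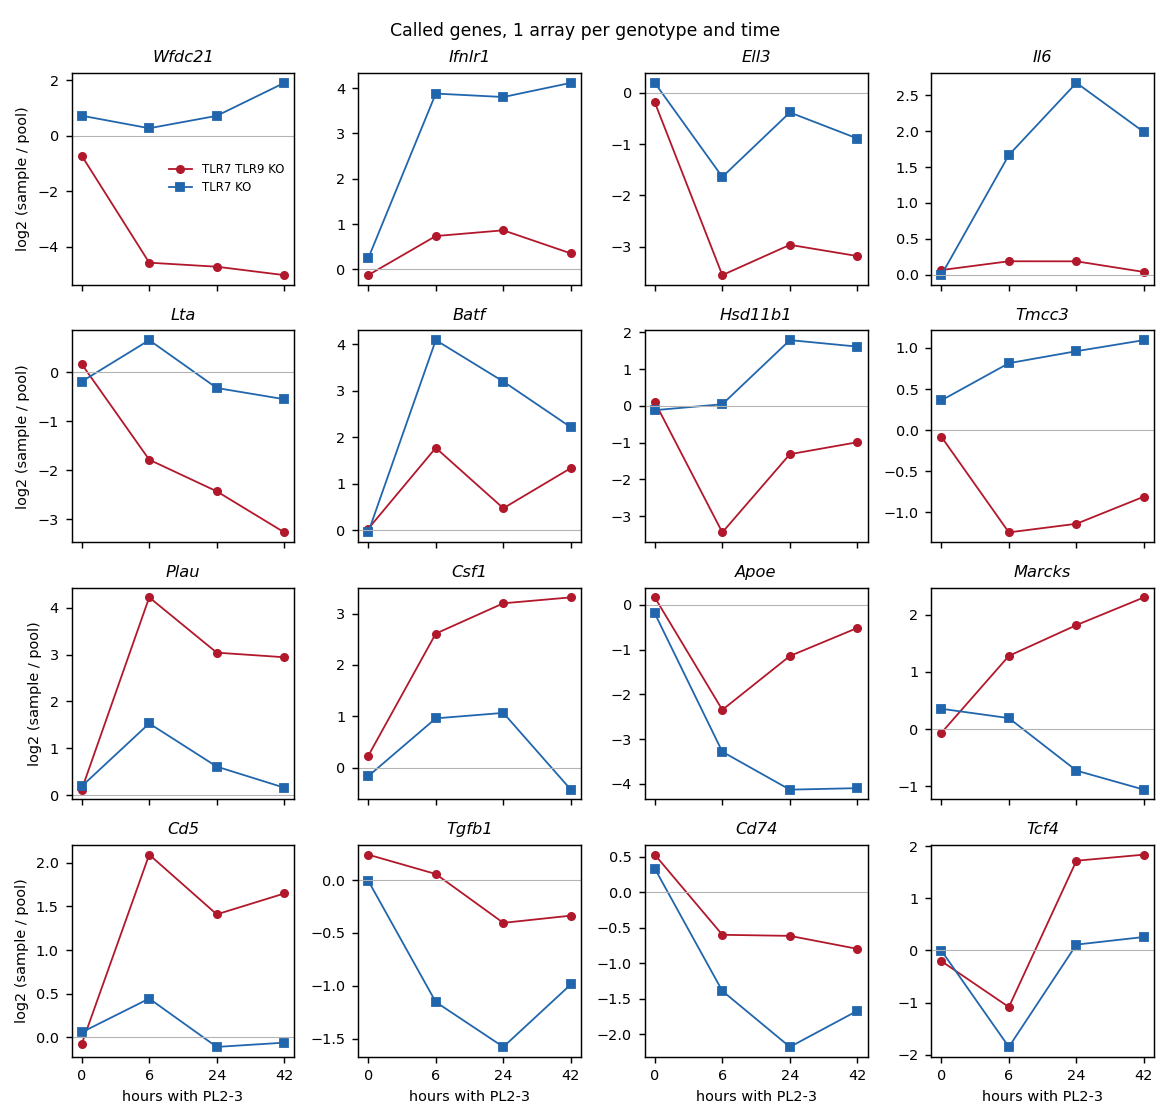
Level of 16 genes that passed the test, as log2 of sample over pool (y axis, own scale per gene), at 0, 6, 24 and 42 h with PL2-3 (x axis). Each point is 1 array and the lines join the times of TLR7 TLR9 KO and of TLR7 KO cells. The genotypes start close together for most genes and stand apart at 6 h, Wfdc21 at -4.57 in TLR7 TLR9 KO cells and 0.27 in TLR7 KO cells.

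Plau, which encodes urokinase, the activator of plasminogen, read 4.22, 3.04 and 2.94 in TLR7 TLR9 KO cells, against 1.53, 0.61 and 0.16 in TLR7 KO cells. It was 6.22-fold higher (log2 difference 2.64 ± 0.36, limma adjusted p = 0.030), with 2 of the 3 TLR7 KO arrays well above background. Marcks, a substrate of protein kinase C at the plasma membrane, read 1.28, 1.81 and 2.30 in TLR7 TLR9 KO cells, against 0.19, -0.72 and -1.06 in TLR7 KO cells, and was 5.02-fold higher (limma adjusted p = 0.041). Levels of Marcks were above the pool in one genotype and near or below it in the other at each time. Apoe, a lipid carrier protein, read -2.35, -1.14 and -0.52 in TLR7 TLR9 KO cells, against -3.28, -4.13 and -4.09 in TLR7 KO cells. Apoe was thus below unstimulated cells in both genotypes, but 5.65-fold higher without TLR9 (limma adjusted p = 0.043).

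The long non-coding RNA Neat1, the scaffold of nuclear paraspeckles, read -0.85, 0.77 and 0.85 in TLR7 TLR9 KO cells, against -2.39, -2.02 and -1.44 in TLR7 KO cells, and was 4.62-fold higher (limma adjusted p = 0.039). Ndrg1, a gene known for its response to hypoxia and other stress, read 1.46, 2.68 and 2.37 in TLR7 TLR9 KO cells, against -0.89, -0.15 and 1.46 in TLR7 KO cells (4.08-fold higher, limma adjusted p = 0.039). Its lowest level without TLR9 equalled the highest with it, to 2 decimals. At 0 h Ndrg1 already differed by 1.02, more than the 0.91 at 42 h, reading 0.64 in TLR7 TLR9 KO cells and -0.38 in TLR7 KO cells. Ephx1, microsomal epoxide hydrolase, Sdc3, a heparan sulfate proteoglycan, and the predicted gene Gm6377 were 4.23-fold, 3.42-fold and 4.42-fold higher, with limma adjusted p of 0.035, 0.047 and 0.048.

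Cd5, a surface protein that damps antigen receptor signals and marks B1 cells and T cells, read 2.09, 1.41 and 1.65 in TLR7 TLR9 KO cells, against 0.44, -0.11 and -0.06 in TLR7 KO cells. It was 3.09-fold higher (limma adjusted p = 0.039) and was the 1 of 15 tested T cell markers that passed, with a list median of 0.19. Tcf4, the E protein E2-2 of B cells and plasmacytoid dendritic cells, read -1.09, 1.73 and 1.84 in TLR7 TLR9 KO cells, against -1.85, 0.11 and 0.26 in TLR7 KO cells. Tcf4 was 2.5-fold higher (limma adjusted p = 0.043) and was the 1 of 15 tested NK and plasmacytoid dendritic cell markers that passed. Tnfrsf18, the costimulatory receptor GITR, read -1.1, -0.19 and 0.15 in TLR7 TLR9 KO cells, against -2.71, -1.66 and -0.79 in TLR7 KO cells. Its rise was 2.53-fold (limma adjusted p = 0.044), with the 6 h level without TLR9 inside the range of TLR7 KO cells.

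Arl2bp, a binding protein of the small GTPase ARL2, was the rise with the smallest p. It read 0.31, -0.09 and 0.08 in TLR7 TLR9 KO cells, against -2.20, -2.50 and -2.39 in TLR7 KO cells, a difference of 2.46 ± 0.09 (limma adjusted p = 1.17e-05). At 0 h the levels were already -0.31 in TLR7 TLR9 KO cells and -2.14 in TLR7 KO cells, so most of the difference was present before stimulation. A second probe, at position 659 of the transcript in place of 1763, gave a difference of 0.05.

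Cytokine genes changed in both directions. Of 18 listed cytokine and chemokine genes 12 were tested, and 2 rose, Csf1 and Tgfb1, while 2 fell, Lta and Il6. Over all tested genes 1.4% rose and 0.558% fell. The median difference of the 12 was -0.88, against -0.01 over all tested genes. Il6, an inflammatory cytokine that B cells secrete, was not well above background on any TLR7 TLR9 KO array and read 1.67, 2.67 and 1.99 in TLR7 KO cells. Its log ratio difference of -1.98 passed (limma adjusted p = 0.039) and corresponds to 3.93-fold. In Cy5 brightness alone its log2 mean was 6.29 in TLR7 TLR9 KO cells, below the level counted as signal, and 8.38 in TLR7 KO cells. On that scale it was at least 4.19-fold lower, with TLR7 KO brightness set against the dimmest signal counted as above background. Lta, which encodes lymphotoxin alpha, read -1.79, -2.43 and -3.27 in TLR7 TLR9 KO cells, against 0.66, -0.32 and -0.55 in TLR7 KO cells, and was 5.37-fold lower (limma adjusted p = 0.044). Lta stood below the level of unstimulated cells at all 3 times without TLR9.

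Csf1, the growth factor of macrophages, read 2.61, 3.20 and 3.31 in TLR7 TLR9 KO cells, against 0.96, 1.07 and -0.42 in TLR7 KO cells. It was 5.68-fold higher (limma adjusted p = 0.047), and of 3 other Csf1 probes, those well above background on 4 of the 6 arrays gave differences of 1.89 and 1.55. Tgfb1, a cytokine that restrains lymphocytes, read 0.06, -0.40 and -0.34 in TLR7 TLR9 KO cells, against -1.15, -1.58 and -0.99 in TLR7 KO cells, and was 2.02-fold higher (limma adjusted p = 0.033). The chemokine gene Ccl4 stood far above the pool in both genotypes, at 6.11, 2.54 and 3.74 in TLR7 TLR9 KO cells and at 8.56, 7.36 and 4.63 in TLR7 KO cells. Its difference of -2.73 did not pass (limma adjusted p = 0.091), nor did those of Tnf at -1.59, Ebi3 at -1.64 and Ccl3 at -0.99 (limma adjusted p = 0.12, 0.083 and 0.088).

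The promoters of Il6 and Csf1 each hold a letter match to the kB element that NF-kB binds, and they are shown because these genes changed in opposite directions. The stretches come from RefSeq on GRCm38.p6, 5′ to 3′ on the gene's strand, with the match in capitals: GGGA, any 2 bases, then TTCC, searched on both strands. They lie at chr5:30013030-30013119 for Il6, plus strand, and chr3:107760574-107760663 for Csf1, minus strand. The match begins 44 bases before the start of Il6 and 154 before that of Csf1, where it reads on the opposite strand.
Il6: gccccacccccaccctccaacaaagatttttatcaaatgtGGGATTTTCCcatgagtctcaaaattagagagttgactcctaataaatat
Csf1: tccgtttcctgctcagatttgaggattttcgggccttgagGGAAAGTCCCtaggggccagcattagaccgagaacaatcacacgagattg
The motif was chosen after the values were seen. It was found in 3 of 164 promoters of higher genes (1.83%) and 1 of 64 of lower genes (1.56%), against 194 of 11283 promoters of all tested genes (1.72%).

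Interferon-stimulated genes stood higher without TLR9 at 6 h. The list of 25, all tested, had a median difference of 0.22 at 0 h, 1.49 at 6 h, 0.48 at 24 h and 0.06 at 42 h, against medians within 0.02 of 0 for all tested genes. At 6 h 14 of the 25 were at least 2-fold higher and 1, Ifih1, at least 2-fold lower, and 24 of the 25 were above 0. None of the 25 passed the test over the 3 times, either with or without the TLR9 KO arrays. The count at 6 h was between 13 and 17 under the other scalings run, while the 24 h median turned to -0.07 with median centring. The 0 h value was less stable: with quantile scaling its median was 0.69, with 12 of 25 at least 2-fold higher, against 0 of 25 in the main scaling.

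Ifi44, an interferon-induced protein, read 2.52, 1.12 and 0.82 in TLR7 TLR9 KO cells, against -0.49, 0.61 and 0.44 in TLR7 KO cells. Rtp4, an interferon-induced chaperone, read 0.78, 0.21 and -0.48 in TLR7 TLR9 KO cells, against -2.16, -0.85 and -0.91 in TLR7 KO cells. Irf7, the regulator that amplifies type I interferon, read 0.42, -0.54 and -0.97 in TLR7 TLR9 KO cells, against -1.92, -1.76 and -1.32 in TLR7 KO cells. All 3 were furthest apart at 6 h, where TLR7 KO cells stood below unstimulated cells, and none passed over the 3 times (limma adjusted p = 0.28, 0.15 and 0.12). The list's median level at 6 h was 0.54 in TLR7 TLR9 KO cells, against -1.01 in TLR7 KO cells. It was -1.15 in TLR9 KO cells and -1.04 in WT cells, so 1 array of the 4 genotypes stood apart at 6 h. Whether this belongs to the genotype or to that array was not tested, since there is 1 array.

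Promoters of 2 of these genes are shown for the interferon-stimulated response element, the site bound by the ISGF3 complex. Capitals mark matches to its core, GAAA, any 2 bases, then GAAA, searched on both strands, which lie here on the opposite strand and so read TTTC, 2 bases, TTTC. The motif was chosen after the values were seen. The stretches lie at chr19:34583350-34583439 for Ifit3 and chr19:34640754-34640843 for Ifit1, plus strand, RefSeq on GRCm38.p6, and the first matches begin 156 and 104 bases before the gene starts.
Ifit3: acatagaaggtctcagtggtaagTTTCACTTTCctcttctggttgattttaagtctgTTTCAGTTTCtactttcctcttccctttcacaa
Ifit1: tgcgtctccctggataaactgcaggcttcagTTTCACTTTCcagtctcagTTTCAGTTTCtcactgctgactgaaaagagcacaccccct
At 6 h Ifit3 was 2.84 and Ifit1 1.71 higher in TLR7 TLR9 KO cells, on the log2 scale. The core was found in 11 of the 18 promoters matched for the list (61.1%), against 436 of 11283 for all tested genes (3.86%). Within the list, 4 of 8 promoters of members at least 2-fold higher at 6 h held it (50%), and 7 of 10 of the others (70%).

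Genes of the cell cycle were lower without TLR9 at the later times. Mitosis genes had a median difference of -0.03 at 6 h, -1.29 at 24 h and -0.99 at 42 h, with 21 of 27 at least 2-fold lower at 24 h and 12 at 42 h. DNA replication genes had medians of -0.06, -1.15 and -0.41, with 17 of 29 at least 2-fold lower at 24 h and 1 at 42 h. No member of either list passed over the 3 times, and at 0 h the medians were -0.03 and -0.05. With quantile scaling 7 mitosis genes and 2 replication genes were at least 2-fold lower at 24 h, and with median centring 25 and 28.

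Ccnb1, the cyclin that drives entry into mitosis, read 0.17, 0.77 and 2.80 in TLR7 TLR9 KO cells, against 0.13, 2.56 and 4.27 in TLR7 KO cells (limma adjusted p = 0.47). Rrm2, the regulated subunit of the enzyme that makes deoxynucleotides, read -1.14, 1.5 and 3.6 in TLR7 TLR9 KO cells, against -0.98, 3.67 and 4.80 in TLR7 KO cells (limma adjusted p = 0.37). Both genes were higher at each later time in both genotypes. Their TLR7 TLR9 KO levels at 42 h were close to those of TLR7 KO cells at 24 h. On the same 2 arrays the list medians were 2.7 against 1.8 for mitosis and 1.8 against 2.0 for DNA replication. MYC, a driver of cell growth, and genes of ribosome biogenesis that it controls had a median difference of -0.25 at 6 h, -0.87 at 24 h and 0.05 at 42 h, with 6 of 22 at least 2-fold lower at 24 h.

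Glycolysis and hypoxia genes differed most at 42 h. Their median difference was 0.04 at 6 h, -0.70 at 24 h and -1.54 at 42 h, with 5 of 20 at least 2-fold lower at 24 h and 16 at 42 h. With quantile scaling 12 were at least 2-fold lower at 42 h. Bnip3, a hypoxia-induced mitophagy receptor, read -0.09, -0.34 and -0.17 in TLR7 TLR9 KO cells, against -0.25, 0.36 and 2.92 in TLR7 KO cells. Ldha, lactate dehydrogenase A, read 2.52, 0.91 and 0.99 in TLR7 TLR9 KO cells, against 2.59, 2.35 and 3.44 in TLR7 KO cells. Ldha was thus alike at 6 h and stood lower at both later times without TLR9. None of the 20 passed over the 3 times. Without the TLR9 KO arrays, where more genes passed over the whole test, 1 did, Hk2, hexokinase 2, which was lower.

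Genes of mature B cell identity were less reduced by stimulation in TLR7 TLR9 KO cells at 24 h. Their median level was -1.91, -1.40 and -1.58 in TLR7 TLR9 KO cells at 6, 24 and 42 h, against -1.70, -2.18 and -1.67 in TLR7 KO cells. Taken gene by gene, the median difference was 0.30 at 6 h, 0.83 at 24 h and 0.36 at 42 h. Of 23 genes 19, 22 and 16 were above 0 at those times, and 10 were at least 2-fold higher at 24 h. With median centring the medians were -0.21, -0.11 and -0.06, and 1 gene was at least 2-fold higher at 24 h. Cd74, the invariant chain that guides MHC class II, was the 1 member that passed. Cd74 read -0.60, -0.61 and -0.80 in TLR7 TLR9 KO cells, against -1.39, -2.18 and -1.67 in TLR7 KO cells, and was 2.11-fold higher (limma adjusted p = 0.047). Without the TLR9 KO arrays 4 members passed, Cd74, Cr2, Fcer2a and Ms4a1, all higher.

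**Figure D3:**
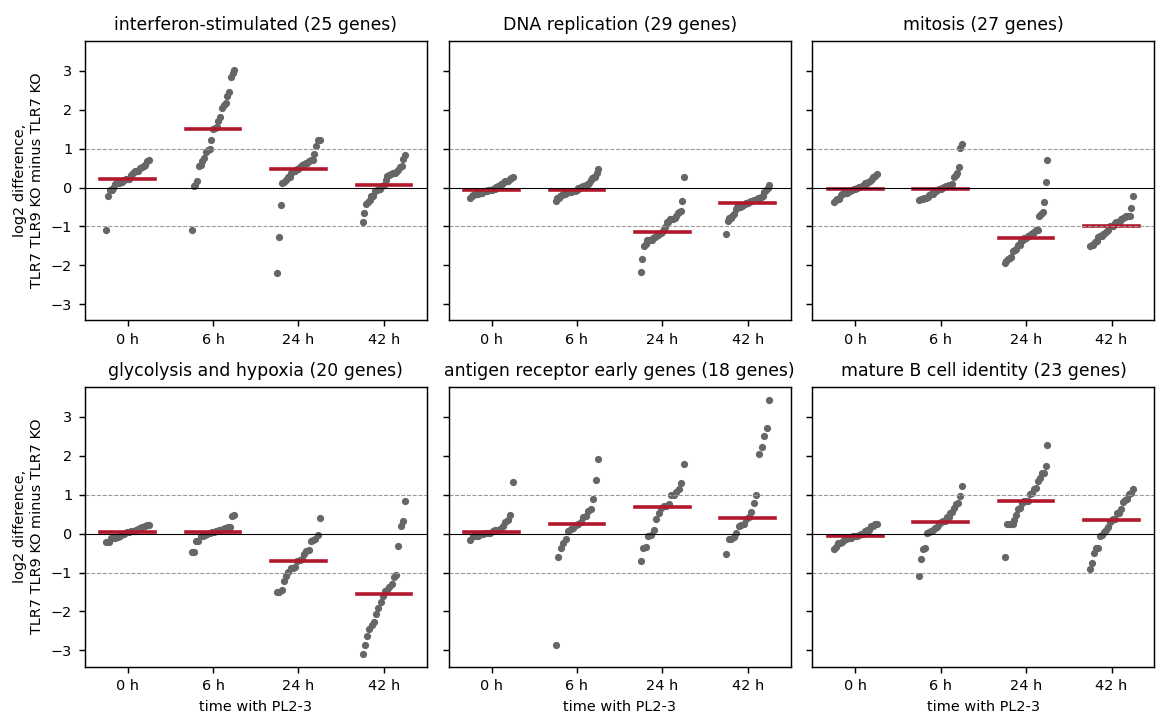
Difference of each tested member of 6 gene lists between TLR7 TLR9 KO and TLR7 KO cells (y axis, log2) at 0, 6, 24 and 42 h (x axis). Points are genes, bars are list medians, and dashed lines mark 2-fold. The interferon-stimulated median is 1.49 at 6 h, the mitosis median -1.29 at 24 h and the glycolysis median -1.54 at 42 h.

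Early genes of the antigen receptor differed in both directions. The list's median difference was 0.24, 0.68 and 0.40 at 6, 24 and 42 h, and 5 of 18 were at least 2-fold higher at 24 h and 5 at 42 h. Jun, a subunit of AP-1, went the other way, reading -5.22, -5.84 and -5.58 in TLR7 TLR9 KO cells, against -2.36, -5.14 and -5.06 in TLR7 KO cells (limma adjusted p = 0.46). The 24 h median was -0.02 with median centring. Egr2, a transcription factor induced by receptor signals, read 5.49, 5.91 and 5.39 in TLR7 TLR9 KO cells, against 5.03, 4.60 and 1.95 in TLR7 KO cells (limma adjusted p = 0.24). Nr4a2, a nuclear receptor of the same immediate response, read 3.99, 3.09 and 3.16 in TLR7 TLR9 KO cells, against 2.61, 1.94 and 0.67 in TLR7 KO cells (limma adjusted p = 0.064). Without the TLR9 KO arrays 2 of the 18 passed, Ier2 and Nr4a2, both higher.

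Genes of the nucleic acid TLR pathway showed 0 calls among 22 tested, with a median difference of 0.30 over the 3 times. With 1.96% of all tested genes called, 0 calls in a list of this size is near the background, here and for the lists below. Without the TLR9 KO arrays more genes passed over the whole test. Members named for that setting are therefore single genes and not results about their lists. Myd88 differed by 0.19 and Unc93b1, the chaperone that carries TLR7 and TLR9 to endosomes, by 0.28 (limma adjusted p = 0.38 and 0.48). Without the TLR9 KO arrays 2 passed, Lgmn, a protease of the endosome, and Traf3, a signalling adaptor, both higher. Among 18 surface activation genes Tnfrsf18 and Tnfrsf9, which encodes the costimulatory receptor 4-1BB, rose, with a list median of -0.21. NF-kB signalling, cytokine receptor, apoptosis, plasma cell, oxidative phosphorylation, lipid synthesis, endoplasmic reticulum and amino acid response lists had 0 calls each. Over the 3 times their medians lay between -0.40 and 0.16. At 24 and 42 h medians were -0.37 and -0.42 for oxidative phosphorylation and -0.52 and -0.67 for lipid synthesis. They were -0.40 and -0.53 for endoplasmic reticulum and -0.65 and -0.52 for amino acid response genes. With quantile scaling these lay between -0.22 and 0.10 at 24 h and between -0.47 and -0.22 at 42 h. In the main scaling the other lists named here had medians between -0.25 and 0.20 at those times. Without the TLR9 KO arrays Relb, Il2rg and Irf4 rose and Socs3 fell. Among class switching genes Ung, which encodes uracil DNA glycosylase, rose and Batf fell.

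Over the 3 times 0 of 20 myeloid and 0 of 15 erythroid markers passed, and without the TLR9 KO arrays 1 myeloid marker did, Mpeg1, which was higher. The quiescence list had 0 calls among 20, and Cd5 was the 1 call among 12 marginal zone and B1 genes. Without the TLR9 KO arrays Btg1 of the quiescence list rose, and of the marginal zone and B1 genes Cd5, Cr2 and S1pr3 rose and Spn fell. Genes linked to the Tlr9 locus were not more often called. Within 10 Mb of Tlr9 on chromosome 9, 4 of 202 tested genes passed (1.98%), against 1.96% of all tested genes with a position.

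Calls were spread unevenly over probe sequences. Of the 201 higher genes, 70 (34.8%) were measured by a probe with the run TGTGTGTG, although only 166 of the 14344 tested genes had such a probe. Thus 42.2% of the genes in that class were called higher and 0 called lower, against 0.859% called higher among the 14081 genes without any of the repeats. Probes with ACACACAC gave 3 higher calls among 66 genes (4.55%), and probes with GCTGTGCTG or CTGTGCTGT gave 7 among 31 (22.6%). These classes were chosen after the values were seen.

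Probe sequences show the repeats. The capitals mark the longest run of the repeat, each stretch is 30 of the probe's 60 bases in the direction of the transcript, and positions are those of the probe on mm9. The probes lie at chr9:64659886-64659945 for Dennd4a, chr2:24646395-24646454 for Ehmt1, chr8:73121456-73121515 for Ssbp4, chr17:25504819-25504878 for Tpsb2 and chr14:119279991-119280050 for Dzip1.
Dennd4a: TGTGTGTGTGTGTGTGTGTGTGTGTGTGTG
Ehmt1: gTGTGTGTGTGagtgtgtgtgactcttcta
Ssbp4: aacacacatatACACACACaaactcaaaag
Tpsb2: ggGCTGTGCTGtctttaactcactgcttcc
Dzip1: agtctgtCTGTGCTGTctgacagcaggtgt
The Dennd4a probe read 0.50, 0.12 and 0.16 in TLR7 TLR9 KO cells, against -0.16, -1.01 and -1.02 in TLR7 KO cells. The difference of 0.99 passed (limma adjusted p = 0.035), while 4 other Dennd4a probes gave -0.18, -0.37, 0.06 and 0.19. Tpsb2, a mast cell tryptase, read 2.91, 2.67 and 2.73 in TLR7 TLR9 KO cells, against 1.49, 1.48 and 0.42 in TLR7 KO cells, and another probe of the gene differed by -0.02. Dzip1, a cilium protein, differed by 1.59, and its other probes by 0.15, -0.10 and -0.07.

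This pattern held over the class as a whole. The median difference of TGTGTGTG probes was -0.03 at 0 h, 0.37 at 6 h, 0.64 at 24 h and 0.67 at 42 h, and that of ACACACAC probes 0.07, 0.45, 1.31 and 1.36. Probes without a repeat had medians between -0.02 and -0.01. The Cy3 pool, which is the same RNA on every array, differed between the genotypes by 0.09, 0.07 and 0.28 for TGTGTGTG probes and by -0.50, -0.32 and -0.54 for ACACACAC probes at 6, 24 and 42 h. Of the 80 higher genes with any repeat, 34 had a second probe, whose median difference was 0.05 against 0.87 for the called probe, and 19 of 34 had the same sign. Of the 121 other higher genes 50 had a second probe, with a median of 0.49 against 0.87, and 49 of 50 had the same sign. For lower genes 23 of 25 second probes had the same sign, with a median of -0.48 against -0.86. Among named rises, Ssbp4, Gm4470, Tnfrsf9, Ung and Hemgn rest on repeat probes. Without TGTGTGTG and ACACACAC probes, a setting added after the data were seen, 100 genes passed, 59 higher and 41 lower.

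**Figure D4:**
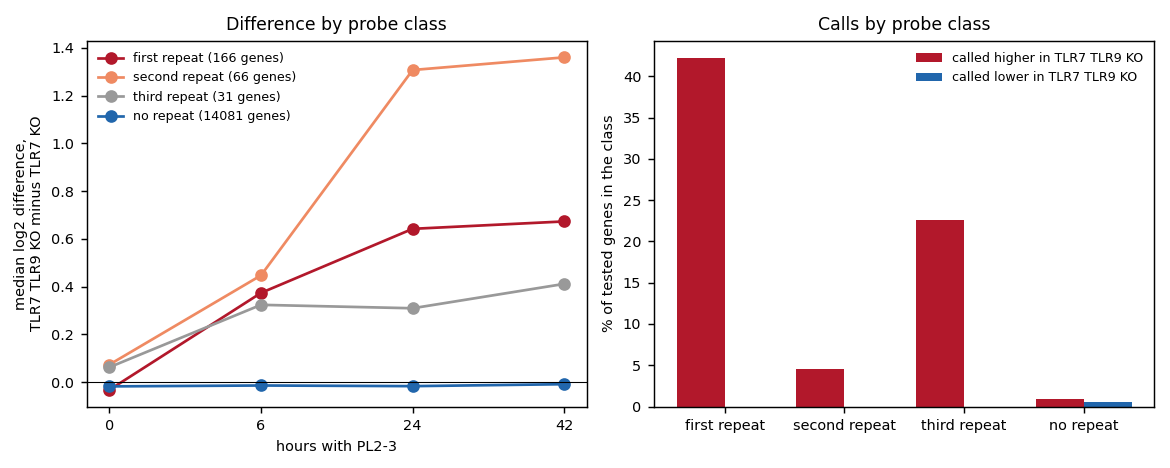
Left, median log2 difference of TLR7 TLR9 KO and TLR7 KO cells (y axis) by time with PL2-3 (x axis) for genes grouped by the repeat in their probe. Right, percent of tested genes in each class called higher or lower in TLR7 TLR9 KO cells. The first repeat is the TG run, the second the AC run and the third the CTGTGCTG core, and 42.2% of the first class are called higher.

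In the main scaling 15 genes were at least 2-fold higher and 47 lower at 0 h, and more with quantile scaling, as given above. The genes furthest apart at 0 h and bright on both arrays were Tyrobp, Hemgn, Npepps, Ly6a and Arl2bp among the higher, and Orai2, Hba-a2, Hba-a1, Hbb-bt and Slc40a1 among the lower. Tyrobp, a signalling adaptor of myeloid and NK cells, read 2.70 in TLR7 TLR9 KO cells and -0.31 in TLR7 KO cells at 0 h. Hba-a1, Hba-a2 and Hbb-bt encode globins, and they read between -1.12 and -0.73 in TLR7 TLR9 KO cells, against 0.75 to 1.27 in TLR7 KO cells. Of 15 erythroid markers 6 were at least 2-fold lower at 0 h, with a list median of -0.55 (-1.98 with quantile scaling), and 4 of 20 myeloid markers were, with a median of -0.30.

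The response difference asks whether stimulation changed a gene by a different amount in each genotype, which removes anything constant on a slide. Of 14585 genes 3 passed (0.0206%), Orai2 and Zdhhc4 higher (0.0137%) and Npepps lower (0.00686%), and 895 reached an unadjusted p below 0.05. The difference rests on 1 array per genotype at 0 h, and by limma 0 genes passed when any stimulated time was left out (648 to 998 at an unadjusted p below 0.05) or on the 8 arrays alone (759). With quantile scaling 2915 passed. Wfdc21, Ifnlr1 and Plau did not pass this test (limma adjusted p = 0.81 each).

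Loss of TLR9 can also be read in cells that have TLR7, from TLR9 KO against WT arrays on the same slides. That pair also differed in sex-linked genes. Xist differed by -3.1, -3.2 and -3.4 at 6, 24 and 42 h. It was not well above background on the stimulated TLR9 KO arrays, so these differences have no exact size. The Y-linked gene Eif2s3y was well above background on the stimulated TLR9 KO arrays and on none of the WT arrays. TLR9 loss and this difference cannot be told apart in that pair. Of the 200 higher genes with all values, 195 (97.5%) were also higher in TLR9 KO than in WT cells over the 3 times, as were 77 of 80 lower genes (96.2%) in their direction. Repeat probes also stood higher in that pair. Their medians at 6, 24 and 42 h were 0.23, 0.12 and 0.41 for TGTGTGTG and 0.41, 0.38 and 1.09 for ACACACAC. Among higher genes without a repeat in the probe, 116 of 121 (95.9%) had the same direction. Over all tested genes 70.9% had the same sign, and both pairs cross the same slides. The median differences between TLR9 KO and WT were 0.42 for the higher and -0.44 for the lower genes. Wfdc21 differed by -3.69 there, Ifnlr1 by -1.66, Plau by 1.69 and Csf1 by 1.62. The interferon-stimulated list did not share the 6 h pattern, with a median of -0.25 between TLR9 KO and WT. The mitosis list had medians of 1.30 at 24 h and -2.38 at 42 h in that pair, which carries the time order of the TLR9 KO arrays described above.

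**Figure D5:**
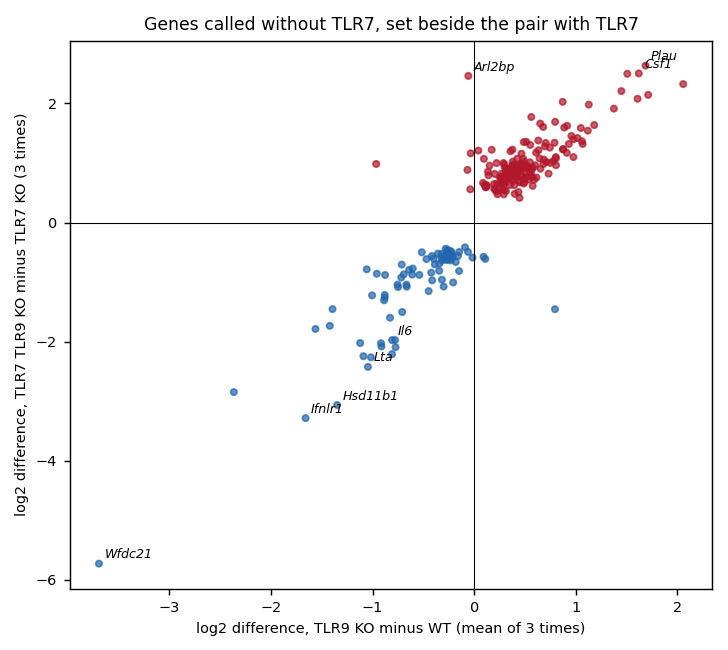
Genes that passed in TLR7 TLR9 KO against TLR7 KO cells: that log2 difference (y axis) against the log2 difference of TLR9 KO and WT cells, mean of 3 times (x axis). Red points are higher and blue points lower in TLR7 TLR9 KO cells. Nearly all points lie in the quadrants of same sign, and Arl2bp lies at 2.46 against -0.06.

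Whether the loss of TLR9 had a different effect without TLR7 than with it was tested as the difference of both differences. Of 15314 genes 5 passed (0.0326%), Arl2bp and Xist higher (0.0131%) and Eif2s3y, Ddx3y and Slc7a4 lower (0.0196%), and 453 reached an unadjusted p below 0.05. For 4 of them the TLR9 KO arrays stood apart from the other genotypes at all 4 times, which the values in the closing section show. None of the cytokine, interferon, cell cycle, glycolysis or B cell identity list members passed this test.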

How the data were processed

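RNA of splenic B cells of AM14 mice was read on 16 2-colour Agilent arrays, 1 per genotype (WT, TLR7 KO, TLR9 KO, TLR7 TLR9 KO) and time (0, 6, 24, 42 h). Per the file headers, the deposited intensity values are mean foreground and median local background of each colour from Agilent Feature Extraction 10.1.1.1, with processed signals beside them. The authors' deposited series table holds log10 ratios of sample over pool, within 5e-04 of log10 of the processed signals. Its column medians run from -0.145 to 0.022, so it is not centred. Other deposited columns are flags per the file headers.

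From the intensity values log2 ratios were computed with limma 3.58.1 (R 4.3.3): normexp with an offset of 50, loess within each array, control spots at weight 0, outlier-flagged spots left out. Of 62976 spots 3671 were controls and 0 of the others were saturated. Of 55681 probes 27235 were named by accession, 3581 by symbol and 565 by synonym from RefSeq, giving 22328 genes, and 24300 stayed unnamed. The brightest probe stood for a gene, and a gene was tested where 3 or more arrays in the comparison had it well above background in Cy5 or Cy3. The stimulated comparison and the difference between TLR9 losses were fitted on the 12 stimulated arrays, the response difference on all 16, with time as a factor and 6 residual degrees of freedom. Calls use Benjamini-Hochberg adjusted p below 0.05, and a 2-fold cut serves single times. Precision is limited by the number of arrays. Simulated data with known changes were used to check the fits.

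Alternatives were processed signals, the authors' table, no background correction, median centring, quantile scaling, other filters, the mean over probes, each time left out, and the arrays of the pair alone. Genes were named as the 12 largest rises and 12 largest falls that passed with 1 sign at all 3 times, the 5 largest each way at each time, those passing the other tests, up to 4 per list, and Tlr7, Tlr9, Myd88 and Unc93b1. The members, lists and tests were chosen with earlier results of these data known. Wfdc17, genes named because they passed under other settings, and genes of the probe and promoter examples were chosen after their values were seen. Some genes that the naming rule picked are not reported here.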

Additional observations from a re-analysis of the deposited data

Results flagged for a closer look

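Of the genes whose response to stimulation differed between the genotypes, 3 passed limma's test on all 16 arrays. Orai2, which encodes a subunit of store-operated calcium channels, differed by 4.51 (log2, SE 0.364, limma adjusted p = 0.00901), Zdhhc4, a palmitoyltransferase, by 1.93 (SE 0.182, adjusted p = 0.0168), and Npepps, an aminopeptidase, by -2.63 (SE 0.289, adjusted p = 0.0395). In each the 0 h array of TLR7 TLR9 KO cells stood apart, at -3.04 for Orai2, -1.85 for Zdhhc4 and 2.71 for Npepps, against 0.12, 0.03 and 0.09 in TLR7 KO cells. The Zdhhc4 spot was not well above background on that 0 h array, so its -1.85 and the difference of 1.93 have no exact size. A second probe on the same 0 h array read -0.24 for Orai2 and -0.21 for Npepps.

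The difference between TLR9 loss without TLR7 and TLR9 loss with TLR7 passed limma's test for 5 genes. Arl2bp differed by 2.52 (limma adjusted p = 0.000187): TLR7 KO cells read between -2.50 and -2.14 over the 4 times, and cells of the other 3 genotypes between -0.31 and 0.69. Xist, the RNA that silences an X chromosome in females, differed by 3.36 (adjusted p = 0.000298). The Y-linked genes Eif2s3y and Ddx3y differed by -4.97 and -3.95 (adjusted p = 0.000298 and 0.000262), and the transporter gene Slc7a4 by -3.41 (adjusted p = 0.00374). TLR9 KO cells read between -2.40 and -1.14 for Xist and between 1.40 and 1.86 for Eif2s3y. TLR7 TLR9 KO cells read 0.40 to 1.54 for Xist and -4.17 to -3.51 for Eif2s3y, and TLR7 KO cells 0.27 to 1.06 and -4.11 to -3.35. WT cells read 0.73 to 1.01 for Xist and -3.58 to -2.49 for Eif2s3y, so only TLR9 KO cells stood apart in these sex-linked genes. Eif2s3y and Ddx3y were not well above background on any stimulated array of TLR7 TLR9 KO, TLR7 KO or WT cells, so their levels there are bounds. Xist was not well above background on any stimulated TLR9 KO array, nor Slc7a4 on any stimulated WT array. Those levels are bounds too, and the differences of these genes have no exact size. The sex of the mice is not given, and its part in these differences was not tested. Slc7a4 read 0.98 to 2.55 in TLR9 KO cells and -1.63 to -0.98 on the arrays of the other 3 genotypes.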

How the results depend on the processing

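The count of 281 calls was within 1.5 times with no background correction (266), no filter (211) and a stricter filter (287). It was 6 with processed signals and 6 with the authors' table (1 higher, 5 lower in each), 1853 with median centring (75 higher, 1778 lower), 78 with quantile scaling (48 and 30), 170 with the mean over probes (109 and 61), 4 to 5 with a time left out and 11 on the 6 arrays alone. Settings added after seeing the data gave 100 without repeat probes (59 and 41), 33 in Cy5 alone (24 and 9) and 543 without the TLR9 KO arrays (396 and 147). Of 33 genes that passed and were picked by the naming rule, 0 reversed under any of these settings, and 3 passed with processed signals, 15 with quantile scaling, 26 with median centring and 33 without the TLR9 KO arrays. The response difference had 3 calls, 0 with median centring (377 at an unadjusted p below 0.05), with any time left out or on the 8 arrays alone, 1 with the mean over probes and 2915 with quantile scaling. The difference between TLR9 losses had 5, 3 with the stricter filter and 0 to 4 with a time left out (205 to 415 at an unadjusted p below 0.05). Genes at least 2-fold higher and lower with median centring were 9 and 81 at 0 h, 118 and 457 at 6 h, 79 and 3921 at 24 h, and 374 and 668 at 42 h. With processed signals they were 397 and 552 at 0 h, 783 and 593 at 6 h, 1063 and 1241 at 24 h, and 1130 and 903 at 42 h. With quantile scaling, added for single times after seeing the data, they were 806 and 1058 at 0 h, 78 and 70 at 6 h, 294 and 174 at 24 h, and 353 and 225 at 42 h, and 2 replication genes at 24 h, 7 and 1 mitosis genes at 24 and 42 h and 2 B cell identity genes at 24 h were past 2-fold. Median centring put 28 replication genes at 24 h, 22 mitosis genes at 42 h and 1 B cell identity gene at 24 h past 2-fold. The cause of these changes was not tested. No paired analysis was possible because each genotype and time has 1 array, so no replicate block could be made; arrays are matched by time, which is a term in each fit. Slide as a block could not be fitted, since each genotype lies on 1 slide. Signal over background limits Il6 to a bound.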

Other observations

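Genes of the mitochondrial ribosome, which makes the proteins encoded by mitochondrial DNA, were lower by small amounts in TLR7 TLR9 KO cells. They were picked out after their values were seen. Of 78 tested genes whose symbols begin with Mrpl or Mrps, 7 fell and 0 rose by limma's test (8.97%, against 0.558% of all tested genes lower). Their median difference over the 3 times was -0.33, with 76 of 78 below 0, against a median of 0.02 at 0 h and of -0.14 between TLR9 KO and WT. Mrpl1 read 0.13, 0.55 and 0.37 in TLR7 TLR9 KO cells, against 1.02, 1.34 and 1.12 in TLR7 KO cells (limma adjusted p = 0.039).

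Single spots stood alone on the 6 h array of TLR7 KO cells. Mrpl12 read 1.34 in TLR7 TLR9 KO cells and 6.92 in TLR7 KO cells at 6 h, but 0.56 and 0.67 against 1.32 and 0.95 at 24 and 42 h. Nap1l1, a histone chaperone, read -0.30 in TLR7 TLR9 KO cells and 5.16 in TLR7 KO cells at 6 h. The other Nap1l1 probes differed over the 3 times by -0.24 and 0.16, against -1.74 for the brightest. On the brightest probes the Cy3 pool itself differed between the genotypes over the 3 times, by 1.91 for Mrpl12 and 1.97 for Nap1l1. In Cy5 the differences were -0.29 and 0.23, so the ratios stood apart mostly in the pool colour.

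At 42 h Siglecf, an inhibitory lectin, read 4.87 in TLR7 TLR9 KO cells and 0.52 in TLR7 KO cells, and Pdgfa, a growth factor, read 6.17 in TLR7 TLR9 KO cells and 2.36 in TLR7 KO cells. At 24 h both genotypes were close, Siglecf at 1.94 in TLR7 TLR9 KO cells and 1.82 in TLR7 KO cells, and neither passed the test over the 3 times (limma adjusted p = 0.38 and 0.31).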
